A study of Mus musculus with 2 samples.

Results

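The gene set described here is the AP-1 group of transcription factors with Atf3 and 2 immediate-early companions: Atf3, Jun, Junb, Jund, Fos, Fosb, Ier2 and Dusp1. They are 8 of the 33696 gene identifiers in the deposited matrices, picked by symbol, and all 8 were found with 1 identifier each. Droplet 3′ single-cell RNA sequencing measured them in embryoid bodies, floating clumps in which stem cells start to differentiate. The bodies came from the male mouse embryonic stem cell line J1 and had received DMSO, the solvent, or dTAG13 for 2 days. The compound dTAG13 sends proteins fused to an FKBP12(F36V) tag to degradation. Tex10, a nuclear protein of ribosome maturation, is named in the series title, but no label names the tagged protein, the number of clones or the number of bodies pooled. Each group is 1 library, so no difference between groups has a replicate check and no p-value is given.

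AP-1 is a dimer of basic leucine zipper proteins. Jun, Junb and Jund can pair with each other or with a Fos protein, whereas Fos and Fosb need a Jun partner to bind DNA. Such dimers bind the sequence TGACTCA, and dimers with Atf3 or other ATF proteins prefer TGACGTCA and close variants. Many of these genes are transcribed within minutes of a growth signal, a stress or tissue dissociation, and their mRNAs are short-lived.

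The stretches before the transcription starts of Atf3, Jun and Dusp1 are shown because in these 3 members the ATF element or a variant of it reads on the gene's own strand. Each line has the 250 bases before the RefSeq start (GRCm38.p6), 5′ to 3′ on the gene's strand, with matches to TNACNTCA in capitals. They are reference sequence, not read from these cells.
Atf3 (chr1:191183334-191183583, minus strand): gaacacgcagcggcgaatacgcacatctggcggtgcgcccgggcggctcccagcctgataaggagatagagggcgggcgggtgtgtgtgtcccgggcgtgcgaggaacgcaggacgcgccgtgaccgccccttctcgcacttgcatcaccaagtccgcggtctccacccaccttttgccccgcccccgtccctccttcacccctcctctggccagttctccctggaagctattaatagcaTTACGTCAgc
Jun (chr4:95052223-95052472, minus strand): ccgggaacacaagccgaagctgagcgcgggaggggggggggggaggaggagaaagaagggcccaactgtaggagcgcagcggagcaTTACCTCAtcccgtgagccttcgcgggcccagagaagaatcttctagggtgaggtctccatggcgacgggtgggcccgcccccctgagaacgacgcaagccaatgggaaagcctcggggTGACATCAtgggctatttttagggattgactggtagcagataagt
Dusp1 (chr17:26508473-26508722, minus strand): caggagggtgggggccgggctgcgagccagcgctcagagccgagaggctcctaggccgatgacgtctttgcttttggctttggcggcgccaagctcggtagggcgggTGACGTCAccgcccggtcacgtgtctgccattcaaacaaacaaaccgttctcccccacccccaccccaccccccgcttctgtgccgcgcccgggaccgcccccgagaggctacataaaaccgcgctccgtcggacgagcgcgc

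Windows were found for 7 members, and 4 motifs were searched on both strands: TGACTCA, TGACGTCA, TNACNTCA, which takes in TGACGTCA, and the CArG box that serum response factor binds. Atf3 had TTACGTCA from 10 to 3 bases before the start. Jun had TTACCTCA from 164 to 157 and TGACATCA from 45 to 38 bases before the start, and Dusp1 had TGACGTCA from 143 to 136 bases before it. Jund had TCACCTCA on the other strand, in a RefSeq window that lies upstream of the GENCODE start of the gene. The GENCODE spans of Atf3 and Dusp1 begin far upstream of their RefSeq starts, so the windows shown lie inside these spans. Junb, Fos and Fosb held none of the 4 motifs, which says only that these letters are not in their windows. Over all 32851 windows, TGACTCA was found in 4.46%, TGACGTCA in 1.55%, TNACNTCA in 14.0% and the CArG box in 1.47%. The motifs were chosen with these sequences in view, and a match is not evidence of binding.

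After removal of barcodes with under 500 genes or over 10% mitochondrial UMIs (counts of distinct tagged transcripts), 17878 DMSO cells with 117189816 UMIs and 11588 dTAG13 cells with 91808969 UMIs remained. Median depth was 6014 and 7072.5 UMIs per cell, so shares of cells are given after each cell was thinned to 3900 UMIs, which left 16123 and 10815 cells. All 9 shared pluripotency markers on the marker list were measured, with summed levels of 2382 CPM (UMIs per 1000000 UMIs of the library) with DMSO and 2169 CPM with dTAG13. None of 7 primitive streak markers reached 5 CPM. Of 13 measured naive pluripotency markers, 4 were at least 1.5-fold lower with dTAG13 and 0 higher (median log2 ratio -0.43, summed levels 9087 and 7893 CPM). Of 7 measured trophoblast markers, 5 were higher and 2 lower (median log2 ratio 1.39, summed levels 208 and 214 CPM), and Cdx2 and Elf5 stayed under 1 CPM in both libraries. Beside these marker counts, 14.2% of all 8817 genes that reached 5 CPM in either library were at least 1.5-fold higher with dTAG13. A further 5.4% of those genes were lower by as much. The part of the markers in the results on the 8 genes was not tested. The libraries had 63 cell barcodes in common among kept cells, and leaving these cells out moved no ratio of the 8 genes beyond its counting interval. All intervals are 95% intervals of counting error only.

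Of the 8 genes, 7 reached 5 CPM in 1 or both libraries. Of these, 6 were at least 1.5-fold higher with dTAG13 and 0 were at least 1.5-fold lower, where 14.2% of all 8817 genes at that level were higher and 5.4% lower by as much. Atf3 and Fos reached 5 CPM only in the dTAG13 library and so could not have counted as lower. Of the 5 members at 5 CPM with DMSO, 4 were higher. The median log2 ratio of the 7 was 1.10, beside 0.09 over all 8817 genes.

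Atf3 (chr1:191170296-191218039, mm10), a stress-induced repressor or activator depending on its partner, had the highest ratio of the set. It gave 177 UMIs (1.51 CPM, interval 1.30 to 1.75) with DMSO and 2144 UMIs (23.4 CPM, 22.4 to 24.4) with dTAG13, a ratio of 15.5 (13.3 to 18.1). The intervals were far apart, and its ratio ranked 9 from the top among all 8817 genes. A single DMSO cell held 19 of the 177 UMIs (10.7%), while no other DMSO cell held more than 3. That cell had 2309 UMIs in all, 10 of them from Zscan4 genes, and without it Atf3 was at 1.35 CPM with DMSO and the ratio was 17.3. In the dTAG13 library the UMIs were spread more widely: 902 cells had 1, 249 had 2, 101 had 3 and the highest cell had 11.

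Jun (chr4:95049034-95052222), the founding AP-1 subunit and a target of the JNK kinases, was at 15.2 CPM (14.5 to 15.9) with DMSO and 74.9 CPM (73.2 to 76.7) with dTAG13. The ratio of 4.92 (4.67 to 5.19) placed it at rank 95 of the 8817 genes. Junb (chr8:84974484-84978718), which often opposes Jun in growth control, was at 22.4 CPM (21.6 to 23.3) and 45.02 CPM (43.7 to 46.4), a ratio of 2.01 (1.91 to 2.11). Jund (chr8:70698949-70700616), the constitutively expressed member, was at 180.04 CPM (178 to 182) and 386 CPM (382 to 390), a ratio of 2.14 (2.11 to 2.18). Thus each Jun gene was higher in the dTAG13 library, and the ratio of Jun lay outside the intervals of the other two.

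Fos (chr12:85473890-85477273), the classical immediate-early partner of Jun, gave 310 UMIs (2.65 CPM, 2.36 to 2.96) with DMSO and 650 UMIs (7.08 CPM, 6.55 to 7.65) with dTAG13, a ratio of 2.68 (2.33 to 3.07). Fosb (chr7:19302696-19310051), its close relative, had few UMIs in either library. It gave 52 UMIs with DMSO and 44 UMIs with dTAG13, a ratio of 1.08 whose interval, 0.71 to 1.65, takes in no difference. Dusp1 (chr17:26505590-26562128), a phosphatase that switches off JNK, p38 and ERK, was at 13.1 CPM (12.4 to 13.7) and 26.6 CPM (25.6 to 27.7), a ratio of 2.04 (1.91 to 2.17). Ier2 (chr8:84661331-84662852), an immediate-early nuclear protein gene, was at 174 CPM (172 to 177) and 158 CPM (156 to 161). Its ratio of 0.91 (0.89 to 0.93) made it the only member of the set that was lower, beyond counting error, over the whole dTAG13 library.

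**Figure D1:**
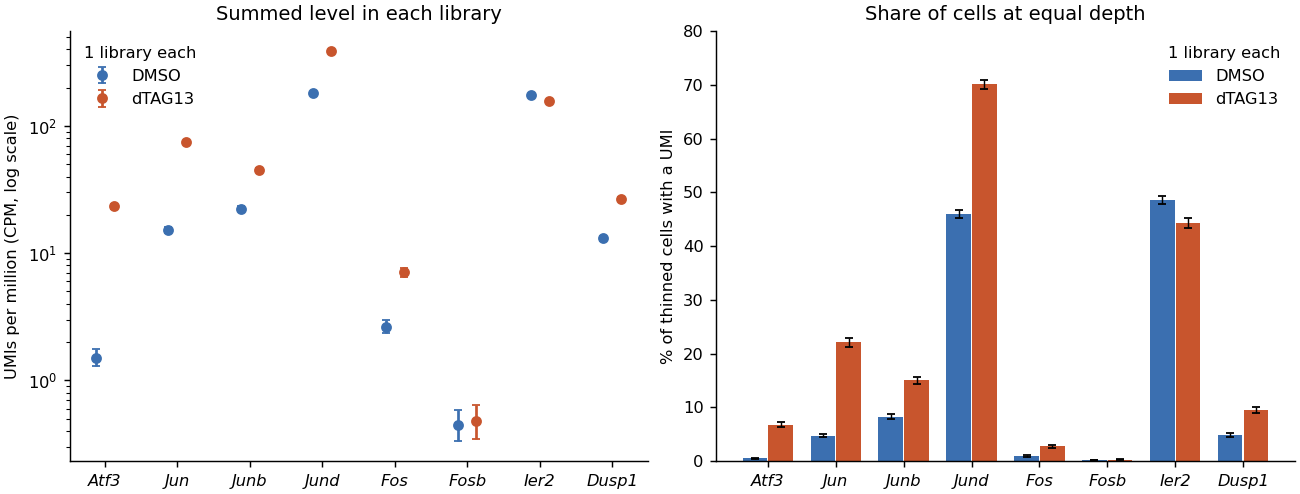
Left, summed level in CPM (log axis) of the 8 genes in the DMSO and dTAG13 libraries, with 95% Poisson intervals. Right, percent of cells with a UMI after thinning to 3900 UMIs, with 95% exact binomial intervals; Atf3 goes from 0.47% to 6.69% and Ier2 from 48.6% to 44.2%.

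At equal depth the share of cells with an Atf3 UMI was 0.465% (75 of 16123 cells, interval 0.366 to 0.583) with DMSO and 6.69% (724 of 10815 cells, 6.23 to 7.18) with dTAG13. Without thinning these shares were 0.80% and 11.6%. A Jun UMI was found in 4.69% (4.37 to 5.03) and 22.1% (21.3 to 22.8) of thinned cells, or 7.68% and 35.5% unthinned. Jund was found in 46.0% (45.2 to 46.8) and 70.1% (69.3 to 71.0), or 59.3% and 85.2% unthinned. Junb went from 8.23% to 14.99%, Dusp1 from 4.81% to 9.51% and Fos from 0.949% to 2.73% of thinned cells (12.8% and 25.4%, 7.81% and 17.0%, and 1.51% and 4.81% unthinned). Fosb was found in 0.174% and 0.185% of thinned cells, or 0.257% and 0.371% unthinned. Ier2 was found in 48.6% (47.9 to 49.4) and 44.2% (43.3 to 45.2) of thinned cells but in 62.7% and 63.9% of unthinned ones. The unthinned order goes against the CPM and is not read, as dTAG13 cells were deeper.

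No cell type that should lack these genes was defined here, so the share that free RNA gives was bounded from Zscan4 UMIs found outside the cluster that holds most of them. If free RNA has the make-up of its library, it was at most 3.81% (2.45 to 5.68) of DMSO UMIs and 5.81% (4.55 to 7.32) of dTAG13 UMIs. At these bounds, free RNA would put an Atf3 UMI in 0.0225% of thinned DMSO cells and 0.528% of thinned dTAG13 cells, and a Jun UMI in 0.226% and 1.68%. The bound scales with each gene's own library total, so it cannot separate the genes.

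The spread of UMIs over thinned cells was described by the variance over the mean. With counts spread evenly over cells of equal depth, the variance of UMIs per cell would be close to the mean. For Atf3 the variance was 1.17 times the mean with DMSO and 1.61 times with dTAG13, and for Jund it was 1.25 and 1.59 times. Jun stood at 1.30 and 1.37, Junb at 1.06 and 1.19, Dusp1 at 1.05 and 1.16, Ier2 at 1.11 and 1.19, and Fos at 1.14 and 1.18. For the same relative spread this measure grows with the mean. The thinned dTAG13 means went from 0.030 for Fos and 0.088 for Atf3 to 0.177 for Junb and 1.51 for Jund. Members at unlike levels are therefore not ranked by it. Cells with 2 or more Jund UMIs made up 15.4% of thinned DMSO cells and 40.0% of thinned dTAG13 cells.

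Within each library, pairs of members were found together in single thinned cells at rates mostly near the product of their own shares. Of 22 pairs with at least 10 cells expected in the dTAG13 library, 18 were above this product. At this depth 3 were at least 1.5 times the product, and all 3 involve Atf3. Pairs with Jund could not get there, as Jund alone was found in 70.1% of these cells. Which pairs reached 1.5 times also changed with depth, as given further below. Atf3 and Jun were found together in 255 cells where the product gives 160, a ratio of 1.60 (interval 1.41 to 1.81). Atf3 and Dusp1 shared 106 cells, a ratio of 1.54 (1.26 to 1.86), and Atf3 and Fos shared 31 cells, a ratio of 1.57 (1.07 to 2.23). Atf3 and Jun shared 15 cells in the DMSO library, where the product gives 3.52, too few expected to be counted with the pairs. In that library 17 pairs could be measured, 14 were above the product, and only Junb with Fos, in 21 cells, reached 1.5 times it (1.67, 1.03 to 2.55). Ier2 did not go with Atf3 in either library: they were found together in 29 DMSO cells (0.79 times the product, 0.53 to 1.14) and 295 dTAG13 cells (0.92 times, 0.82 to 1.03).

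These links became smaller once cells were compared within clusters. Summed over clusters, the Atf3 and Jun pair in the dTAG13 library had 1.42 times (1.25 to 1.61) the expected cells, 0 of the 22 pairs reached 1.5 times, and 19 were above 1. The Pearson correlations of log2(UMIs + 1) over the 10815 thinned dTAG13 cells were weak, at most 0.12 (Jun with Jund) and 0.10 for Atf3 with Jun, so no ordering of pairs is drawn from them. In thinned dTAG13 cells, 5.11% had UMIs of 4 or more of the 8 genes, where the product of the shares gives 3.45%. The same values with DMSO were 0.577% and 0.292%.

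**Figure D2:**
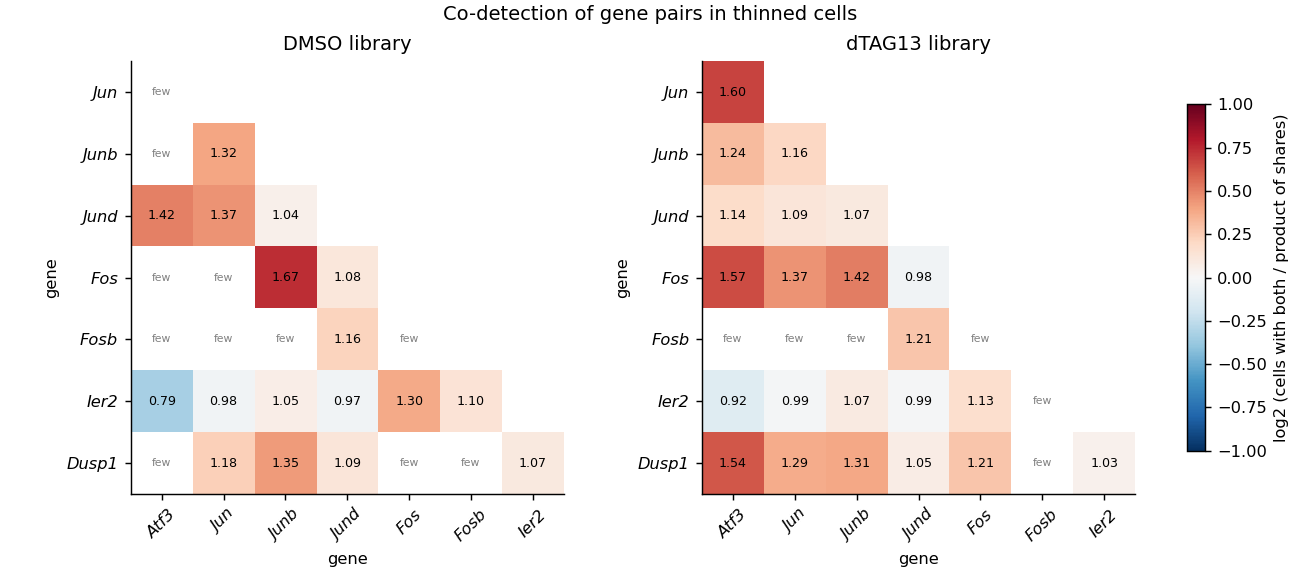
Pairs of genes in thinned cells of the DMSO (left) and dTAG13 (right) library; colour and number give the cells with both genes over the product of the shares (colour on a log2 scale), and "few" marks pairs with under 10 cells expected. In the dTAG13 library the highest values are those of Atf3 with Jun (1.60), Fos (1.57) and Dusp1 (1.54).

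Cells with and without an Atf3 UMI were compared for 7 genes outside the set. In the dTAG13 library, Nectin4, a cell adhesion gene, was found in 26.1% (22.9 to 29.5) of the 724 thinned cells with Atf3 and 11.3% (10.7 to 11.9) of the 10091 without. Mdm2, the ubiquitin ligase induced by p53, was found in 77.9% (74.7 to 80.9) and 67.3% (66.4 to 68.3), and Ddit3, a stress-response factor gene, in 10.9% (8.73 to 13.4) and 6.13% (5.67 to 6.62). The pluripotency factor gene Pou5f1 was found in 78.0% (74.8 to 81.0) of cells with Atf3 and 83.7% (83.0 to 84.5) of the others. The cell cycle inhibitor gene Cdkn1a was found in 64.0% (60.3 to 67.5) and 52.5% (51.5 to 53.5). The intervals overlapped for Gadd45a, at 7.32% (5.53 to 9.47) and 8.71% (8.17 to 9.28), and for Neurod1, at 17.5% (14.8 to 20.5) and 14.5% (13.8 to 15.2). In the DMSO library only 75 thinned cells had Atf3, and Jun was found in 20% (11.6 to 30.8) of them against 4.62% (4.298 to 4.95) of the rest. There Ddit3 was found in 8.0% (2.99 to 16.6) of cells with Atf3 and 1.36% (1.19 to 1.55) of the rest. Pou5f1 was found in 74.7% (63.3 to 84.0) and 88.9% (88.4 to 89.4). Nectin4 was found in 0 of the cells with Atf3 (interval 0 to 4.80) and 0.555% of the rest. The DMSO intervals overlapped for Nectin4, Mdm2, Cdkn1a, Gadd45a and Neurod1.

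By correlation of log2(UMIs + 1) over thinned cells, the genes most like Atf3 in the dTAG13 library were Sct (0.15), Tpm1 (0.14), Cald1 (0.13), Krt19 (0.13), Nectin4, Krt8, Perp and Tagln2, out of 8450 genes with a UMI in at least 2% of cells. In the DMSO library they were Krt8 (0.10), Krt18 (0.08) and Peg10 (0.07), where no gene was above 0.1. Jun was most like Klf6 (0.15), Tpm1 (0.15) and S100a6 (0.14) with dTAG13, but most like the homeobox genes Rhox9 (0.15) and Rhox6 (0.14) with DMSO. Jund was most like S100a6 (0.23), Sct (0.20) and Tpm1 (0.19) with dTAG13, and Rhox9 (0.11) and Rhox6 (0.10) with DMSO. Fos was most like Egr1 (0.08) with DMSO and Krt8 (0.05) with dTAG13. All of these values are low, and cells of 1 library share its depth and its free RNA, so they describe these cells only.

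Cell cycle phase was called from S phase and G2 and M phase genes. In each phase 7 members reached 5 CPM, 6 of them were at least 1.5-fold higher with dTAG13 and 0 lower. Over all genes 28.2% were higher and 13.2% lower by as much in G1, 11.2% and 3.83% in S phase, and 13.3% and 6.26% among cells of G2 and M. The Atf3 ratio was 18.4 (15.1 to 22.6) in G2 and M, 11.6 (7.95 to 17.3) in S phase and 3.39 (1.70 to 7.92) in G1, where the DMSO library has only 133 cells and 8 Atf3 UMIs. Within the dTAG13 library, Atf3 was at 36.1 CPM in the 1474 cells called G1, 22.8 CPM in G2 and M, and 15.3 CPM in S. Jund followed with 540 CPM in G1, 365 CPM in G2 and M and 361 CPM in S, and Jun with 105, 72.2 and 59.6 CPM. Ier2 had another order, at 154 CPM in G1, 152 CPM in G2 and M and 197 CPM in S, and its ratio was 1.07 (0.88 to 1.32) in G1, 0.90 (0.87 to 0.92) in G2 and M and 1.02 (0.97 to 1.07) in S. G1 was called for 0.825% of phased DMSO cells and 13.6% of phased dTAG13 cells.

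Cells of both libraries were clustered together with the 8 genes left out, and each library had 50 or more cells in 11 clusters. Among dTAG13 cells, Atf3 was highest in those of cluster 9, led by Hand1, Magea9 and Plac1 (41.6 CPM, 268 cells), of cluster 6, led by Shisa4 and Nectin4, with Atf3 itself next though it did not enter the clustering (36.8 CPM, 2554 cells), and of cluster 3, led by Krt19 and Sct (31.5 CPM, 3265 cells). It was at 16.3 CPM in the 3641 dTAG13 cells of cluster 2, led by histone genes, and at 4.66 CPM in the 996 dTAG13 cells of cluster 7, led by the mitotic genes Aurka and Cdc20. Cluster 9 also had the highest Jun, at 146 CPM (112 cells) with DMSO and 141 CPM with dTAG13, and the highest Jund, at 385 and 641 CPM. In the same cells Ier2 was low, at 104 and 87.5 CPM. The Jun ratio there, 0.97 (0.79 to 1.20), takes in no difference, unlike that of Jund, 1.66 (1.47 to 1.88).

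Jund was higher with dTAG13, with an interval above 1, in all 11 clusters, at ratios from 1.17 in cluster 8 to 1.93 in cluster 3. Jun had a ratio interval above 1 in 9 of the 11, all but clusters 4 and 9. In DMSO cells Jun itself varied widely, from 3.16 CPM in cluster 5, led by Aard and Mras, to 27.9 CPM in cluster 0, led by Rhox9 and Rhox6, both of them clusters with over 2000 DMSO cells. Cluster 7 holds similar numbers of both libraries, 635 DMSO and 996 dTAG13 cells. There Atf3 was at 1.96 and 4.66 CPM (ratio 2.38, 1.11 to 5.86), Jun at 23.7 and 36.1 CPM (ratio 1.52, 1.21 to 1.93), Jund at 172 and 261 CPM (ratio 1.52, 1.39 to 1.65) and Fos at a ratio of 1.18 (0.53 to 2.89). Junb and Dusp1, near 2-fold over the whole libraries, had ratios of 1.16 (0.92 to 1.46) and 1.17 (0.87 to 1.60) in this cluster. Over the 11 clusters the Junb interval lay above 1 only in clusters 0 and 3, and the Dusp1 interval only in cluster 3, while that of Fos lay above 1 in none. For these 3 genes the intervals within clusters thus mostly took in no difference. Many clusters hold few cells of 1 library, so these intervals do not show that a difference is absent. In cluster 3 the Junb ratio was 2.12 (1.47 to 3.18) and the Dusp1 ratio 2.81 (1.67 to 5.17). Both were above the whole-library ratios, which their intervals take in. For Atf3, Jun and Jund, the ratios within clusters were all below those of whole libraries. They were at most 14.6 for Atf3 (cluster 3, 4.03 to 121), 3.37 for Jun (cluster 1) and 1.93 for Jund. In clusters 2 and 6, with most dTAG13 cells, the Atf3 ratio was 3.31 (1.73 to 7.29) and 3.41 (1.46 to 10.5). Ier2 was higher with dTAG13 in clusters 1 (ratio 1.19, 1.03 to 1.38) and 8 (1.15, 1.03 to 1.29) and lower in cluster 3 (0.84, 0.72 to 0.98). The ratio of Atf3 fell below 1 in clusters 8 and 11, at 0.72 (0.22 to 1.91) and 0.25 (0.07 to 0.68). Cluster 11, led by Eif1ad and Zscan4 genes, holds the DMSO cell with 19 Atf3 UMIs; without it that cluster has 1 Atf3 UMI with DMSO against 5 with dTAG13.

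**Figure D3:**
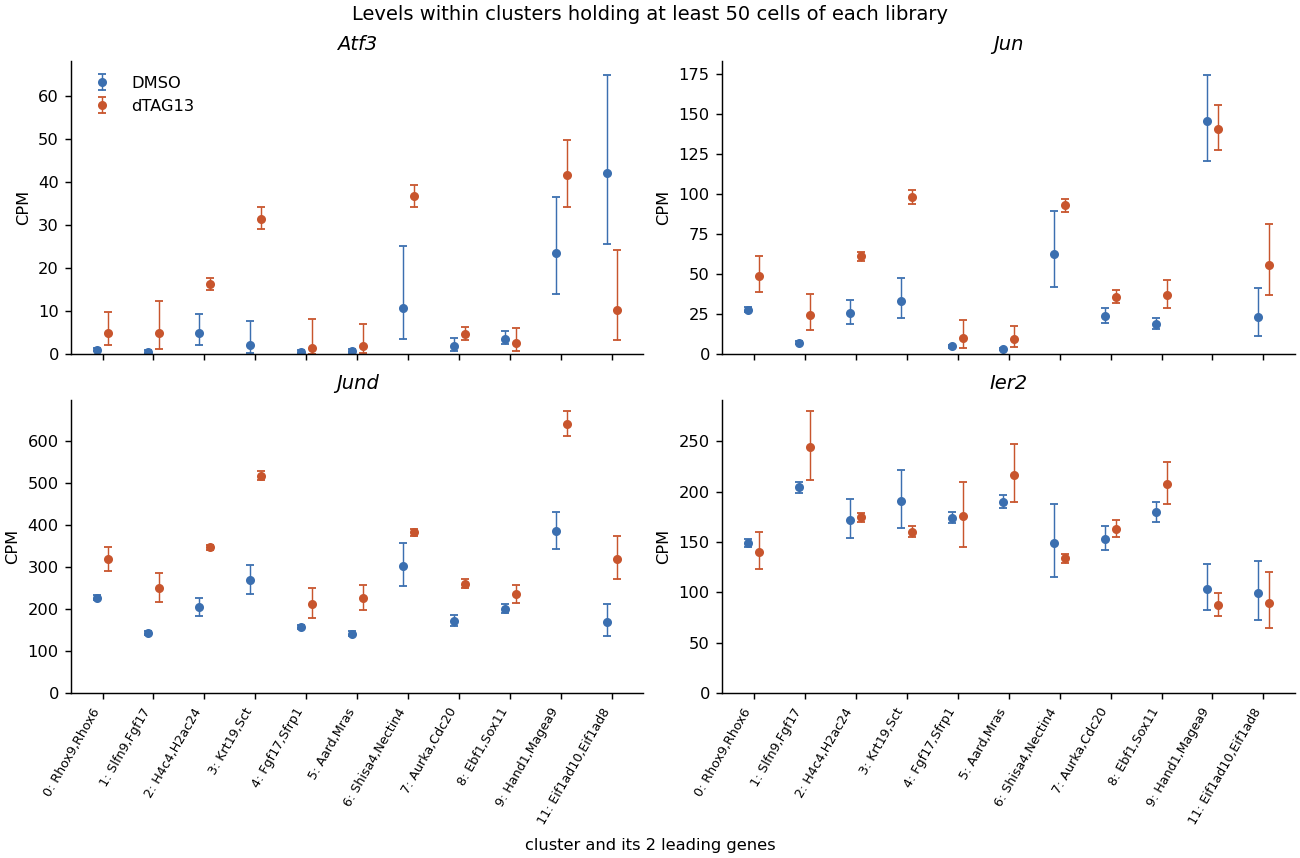
Levels in CPM of Atf3, Jun, Jund and Ier2 in DMSO and dTAG13 cells of the 11 clusters where each library has 50 or more cells, with 95% Poisson intervals. Jund is higher with dTAG13 in each cluster shown, while Ier2 has no such separation and is lowest in clusters 9 and 11.

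Targets of p53 were higher in the dTAG13 library: 26 of 32 listed genes were at least 1.5-fold higher, with Mdm2 at 45.3 and 364 CPM, beside 14.2% of all 8817 genes. Cells were set side by side at the same number of p53 target UMIs, counted over 30 of these genes, without Rps27l and Bax, which are abundant in both libraries. Among cells with 6 to 8 such UMIs, 1930 with DMSO and 2403 with dTAG13, Atf3 was at 2.79 CPM (1.73 to 4.26) and 11.4 CPM (9.36 to 13.8), Jun at 20.6 CPM (17.5 to 24.1) and 52.7 CPM (48.2 to 57.6), and Jund at 191 CPM (181 to 201) and 355 CPM (343 to 367). The intervals of the libraries did not overlap for these 3 genes, for Junb, at 22.5 CPM (19.2 to 26.1) and 39.4 CPM (35.5 to 43.6), and for Dusp1, at 14.6 CPM (12.01 to 17.6) and 23.0 CPM (20.1 to 26.3). An equal count of target UMIs does not show equal p53 activity, and its part in the differences was not tested. Fos was at 4.52 CPM (3.13 to 6.31) and 4.37 CPM (3.14 to 5.94) in these cells, and Ier2 at 173 CPM in both, with overlapping intervals. The Fos intervals overlapped in every bin with 50 or more cells of each library except that of 3 to 5 target UMIs, at 2.89 CPM (2.24 to 3.67) and 5.93 CPM (3.87 to 8.69).

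Within the dTAG13 library the members also varied with the p53 target count. From cells with 3 to 5 target UMIs (1124 cells) to those with 16 or more (1688 cells), Atf3 went from 8.44 CPM (5.94 to 11.6) to 48.5 CPM (43.3 to 54.1) and Jun from 47.7 CPM (41.4 to 54.6) to 115 CPM (107 to 123). Jund went from 309 to 474 CPM, Junb from 36.3 to 67.4 CPM and Fos from 5.93 to 11.7 CPM. Ier2 went the other way, from 171 CPM (159 to 184) to 140 CPM (131 to 150). The rise was not particular to this library. From DMSO cells with at most 2 target UMIs to the 491 with 9 to 11, Jun went from 10.0 to 30.3 CPM (23.0 to 39.2). Jund went from 161 to 216 CPM (196 to 238), Atf3 from 0.74 (0.46 to 1.12) to 3.66 CPM (1.47 to 7.53) and Fos from 1.58 (1.16 to 2.10) to 4.70 CPM (2.15 to 8.92). The DMSO intervals of Ier2 overlapped, at 183 (178 to 188) and 179 CPM (160 to 199), as did those of Junb. In the 219 dTAG13 cells with at most 2 target UMIs, Jun was at 29.3 CPM (18.9 to 43.2) and Jund at 261 CPM (228 to 298), beside 10.0 CPM (8.92 to 11.2) and 161 CPM (157 to 166) in the 7618 DMSO cells of the same count. Free RNA at the bound above would add up to 4.35 CPM of Jun and 22.4 CPM of Jund to a dTAG13 cell.

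**Figure D4:**
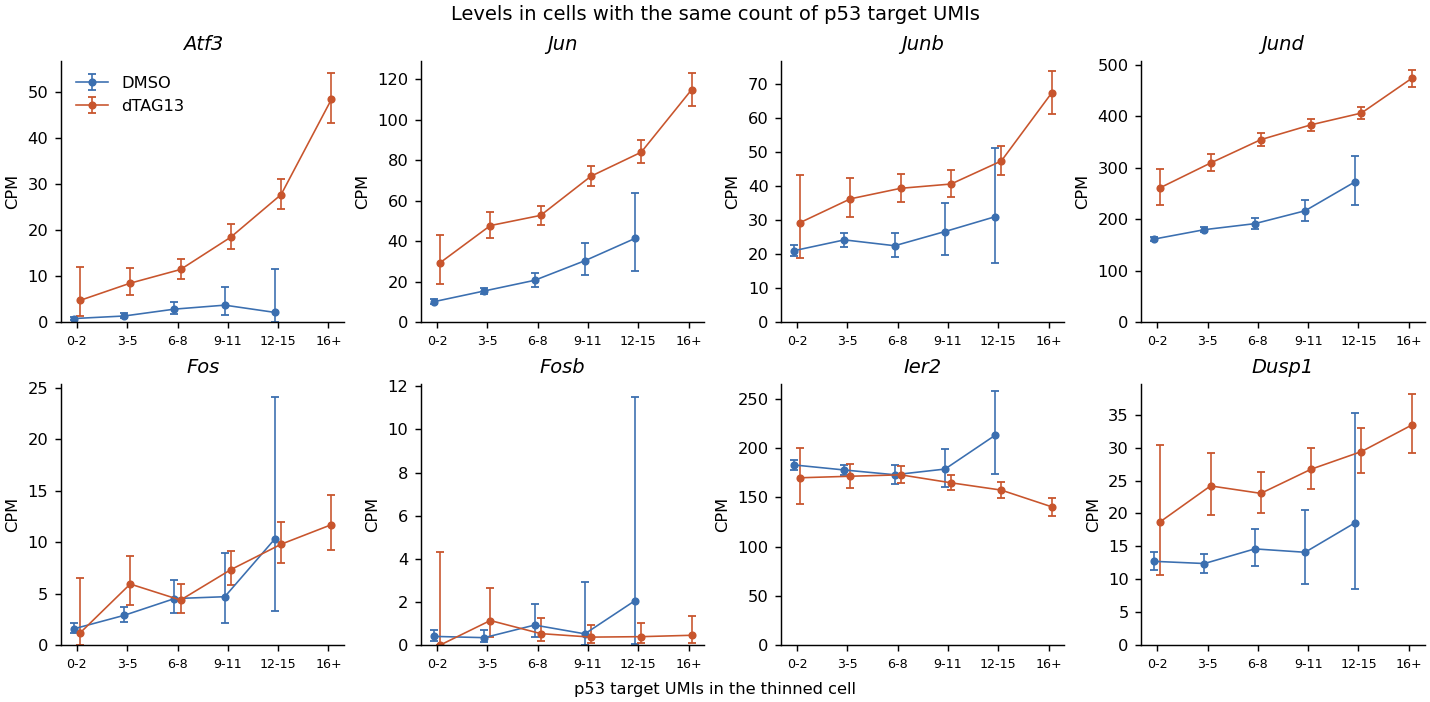
Levels in CPM of the 8 genes (vertical axes, each with its own range) against the number of p53 target UMIs in the thinned cell, for DMSO and dTAG13 cells, with 95% Poisson intervals; bins with under 50 cells are left out. In cells with 6 to 8 target UMIs Atf3, Jun and Jund are higher with dTAG13, whereas the Fos and Ier2 intervals of the libraries overlap.

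Some members varied with the mitochondrial share of UMIs, a usual sign of cell quality. Between the fifth of thinned dTAG13 cells with the fewest mitochondrial UMIs and the fifth with the most, Jund went from 477 to 320 CPM, Jun from 91.6 to 66.0 CPM, Junb from 54.8 to 37.9 CPM, Atf3 from 33.8 to 18.7 CPM and Dusp1 from 33.8 to 21.8 CPM. Ier2 was at 157 CPM in both of these groups of cells, and Fos at 8.54 CPM (6.68 to 10.7) and 9.01 CPM (7.10 to 11.3). In the DMSO library Jun went from 10.7 to 20.9 CPM and Jund from 167 to 185 CPM, whereas Ier2 went from 188 to 162 CPM. The DMSO intervals of Atf3, Junb, Dusp1, Fos and Fosb overlapped between these groups. The median mitochondrial share was 2.48% with DMSO and 1.97% with dTAG13. The part of this in the differences between libraries was not tested. As trypsin was used to dissociate both groups, induction of these genes during dissociation and during treatment cannot be told apart.

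The other Fos genes, chosen after their values were seen, were low but followed the same direction. Fosl1 gave 38 UMIs with DMSO and 558 with dTAG13 (0.32 and 6.08 CPM), a ratio of 18.7 (13.5 to 26.8), and Fosl2 gave 13 and 80 UMIs, a ratio of 7.86 (4.34 to 15.4). Of the 16 measured ATF, CREB, MAF and C/EBP partners other than Atf3, 3 were at least 1.5-fold higher and 1 was lower by as much, with a median log2 ratio of 0.11. The higher ones were Atf4, the translationally controlled stress factor, with 52.7 CPM in DMSO and 106 CPM in dTAG13, Ddit3, with 3.73 and 18.4 CPM, and the C/EBP gene Cebpb, with 6.03 and 17.3 CPM. The lower one, likewise chosen after its values were seen, was Jdp2, which encodes a repressor that binds Jun, at 5.35 and 1.74 CPM (ratio 0.33, 0.27 to 0.39). Bach1, a repressor that pairs with small MAF proteins, was at 10.1 and 13.3 CPM.

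**Figure D5:**
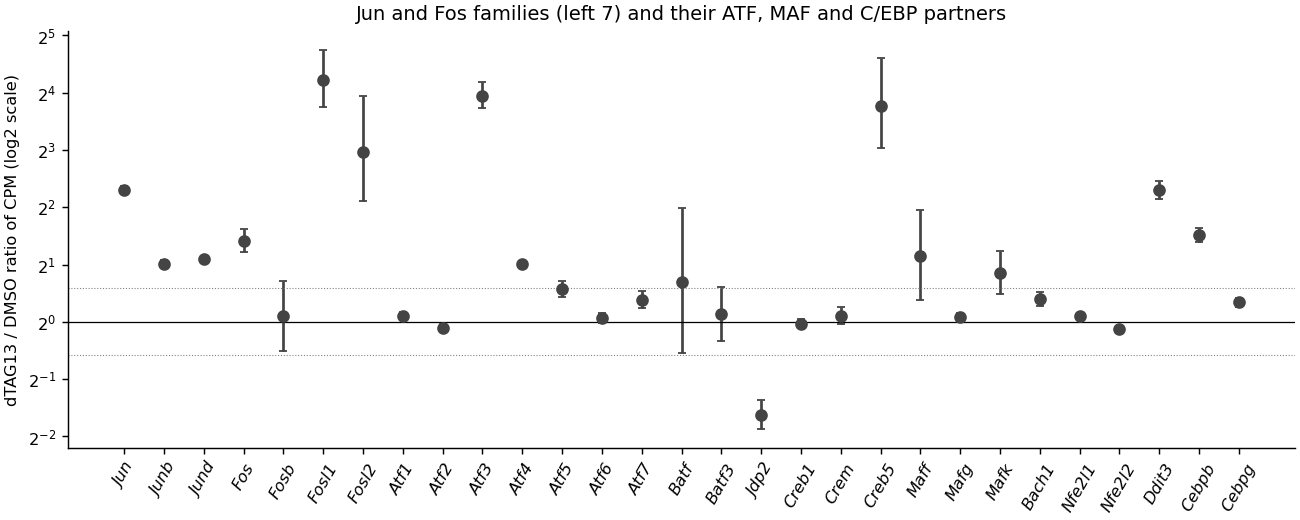
Ratio of CPM, dTAG13 over DMSO (log2 axis), for the Jun and Fos families and their listed partners with UMIs in both libraries, with 95% exact conditional intervals; dotted lines mark 1.5-fold. Fosl1, Atf3 and Creb5 lie highest and Jdp2 lowest, and of these all but Atf3 were singled out after their values were seen.

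Other immediate-early genes included higher, similar and lower ones. Of 20 measured genes outside the set of 8, 11 were at least 1.5-fold higher and 1 was lower by as much, with a median log2 ratio of 0.70. Among all 8817 genes, 14.2% were higher and 5.4% lower. Ccn1, a matricellular protein gene, was at 1.94 and 19.98 CPM, Btg2, also a p53 target, at 15.03 and 120 CPM, the zinc finger factor gene Klf6 at 26.9 and 123 CPM, and Rhob at 11.7 and 44.9 CPM. Chosen after their values were seen, the growth-signal genes Egr1 and Nr4a1 had ratios of 0.85 (0.79 to 0.92) and 1.01 (0.91 to 1.11), and Myc was the lower one, at 7.37 and 3.22 CPM. Chosen in the same way, Klf2 (591 and 409 CPM), Sgk1 (56.7 and 39.4 CPM) and Klf4 (37.2 and 29.6 CPM) were lower by less than 1.5-fold but beyond counting error, with ratios of 0.69 (0.68 to 0.70), 0.70 (0.67 to 0.72) and 0.80 (0.76 to 0.83). Thus Egr1, Nr4a1 and Ier2, which share the rapid induction of Fos, did not have its higher level in the dTAG13 library.

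Upstream of AP-1, the JNK and p38 cascade list had 17 measured genes, 6 of them at least 1.5-fold higher and 0 lower, with a median log2 ratio of 0.45. The shares over all 8817 genes were 14.2% higher and 5.4% lower. Map3k20, the kinase that senses stalled ribosomes, was at 10.2 and 38.6 CPM, Gadd45g, an activator of Map3k4, at 9.10 and 27.8 CPM, Map3k7 at 18.4 and 38.9 CPM and Map2k4, which activates JNK, at 26.3 and 45.6 CPM. In the ERK cascade, the kinase gene Araf was at 21.3 and 32.4 CPM, at least 1.5-fold higher with dTAG13. Rps6ka1 was at 28.9 and 36.4 CPM and Map2k2 at 82.5 and 65.1 CPM.

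Among the negative regulators, 4 MAP kinase phosphatases other than Dusp1 were measured and 1 was higher, Dusp16 at 6.69 and 15.9 CPM. Of 8 measured genes listed under degradation and repression of AP-1, 2 were higher and 1, Jdp2, was lower. The counts of these 2 short lists stand beside 14.2% higher and 5.4% lower over all 8817 genes. A role of Sfn, 1 of the 2 higher, in control of AP-1 was not tested. Fbxw7, the ubiquitin ligase adaptor that recognises phosphorylated Jun, was at 37.1 and 93.2 CPM, Sfn at 171 and 299.6 CPM, Cop1 at 19.0 and 25.3 CPM and Itch at 26.6 and 34.0 CPM.

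Of 16 measured genes reported as AP-1 targets, 6 were at least 1.5-fold higher and 2 lower, with a median log2 ratio of 0.29. Phlda1 was at 5.75 and 38.2 CPM, S100a6 at 68.7 and 298 CPM, and the keratin genes Krt8 and Krt18 at ratios of 2.64 and 2.62. Genes of serum response factor and its targets had 3 higher and 1 lower of 8 measured, with Tagln, a smooth-muscle actin-binding protein gene, at 27.6 and 85.7 CPM, Actg1 at 950 and 1669 CPM, Tpm1 at 246 and 427 CPM, and the cofactor gene Mrtfb at 10.8 and 15.6 CPM. Without Atf3, the list of integrated stress response genes had 8 of 21 genes higher and 2 lower, with Ddit4 at 6.29 and 73.4 CPM and Gdf15 at 4.08 and 10.1 CPM. Ddit4 and Sesn2 are also on the list of p53 targets, so these lists are not separate. The heat shock list had 0 of 12 measured genes higher and 1 lower, Hspa5 at 617 and 338 CPM. Hspa5 is also among the leading genes of the unfolded protein stress cluster described below, and no other gene of the list was lower by as much. These counts stand beside 14.2% of all genes higher and 5.4% lower, and no set test was made.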

How the data were processed

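The deposited matrices hold raw UMI counts per gene and cell barcode, which the authors produced, per the file headers, in Cell Ranger 8.0.1. The submitters' processing notes name mm10, Seurat 5.0.1 and R 4.3.2 without their roles. How barcodes were chosen for deposit: not given in the sources used here. Identifiers sharing a symbol were summed. Barcodes needed 500 genes or more and no more than 10% mt- UMIs; no doublet caller was run and no doublets were removed. UMIs were summed per library and scaled to CPM, with exact Poisson intervals; ratios are dTAG13 over DMSO with exact conditional binomial intervals, and shares have exact (Clopper-Pearson) intervals, all at 95%. Cells were thinned to 3900 UMIs (seed 1). Phases and clusters came from scanpy 1.11.5 and leidenalg 0.10.2 (2000 variable genes without the 8 genes, 30 components, 15 neighbours, resolution 1). The fold threshold of 1.5, the ratios and the co-detection measure were tested on simulated data.

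The members and gene lists were chosen with earlier results of these data known. Named from each list were up to 4 genes with the largest log2 ratio in size at 10 CPM or more, and for Atf3, Jun, Fos and Jund the genes most correlated over thinned cells, up to 8. Gene positions are from GENCODE M21 (mm10) and promoter windows from RefSeq (GRCm38.p6). Cells are not replicates and no test between groups was made. The count over the ERK cascade list is not reported here.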

Additional observations from a re-analysis of the deposited data

How the results depend on the processing

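In each of the 12 other settings tried, between 5 and 6 of the members that reached the level limit were at least 1.5-fold higher with dTAG13 and 0 were lower by as much. The median log2 ratio of the members, 1.10, became 1.02 with median-of-ratios scaling, which shifts all genes by 0.07, 1.06 when no minimum level was set, 1.06 with a minimum of 20 CPM (5 of 6 higher), 1.18 when each cell weighed the same and 1.03 in cells called G2 and M. It became 1.16 in cells of clusters where their own library has more cells, a setting chosen after seeing the data. The Atf3 ratio ranged from 12.9, when each cell weighed the same, to 20.3 in those clusters. No member changed direction past the 1.5-fold limit.

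Co-detection depended more on the settings. The number of pairs at 1.5 times the product of their shares in the DMSO library, 1 after thinning to 3900 UMIs, was 2 at 2000 UMIs and 7 without thinning. In the dTAG13 library it was 3, and became 5 without thinning and, within clusters, 0, the last chosen after seeing the data. At 2000 UMIs it was again 3 in that library, but Jun with Fos (1.84, 1.31 to 2.52) was among them. Atf3 with Fos then had under 10 cells expected. Without thinning, Jun with Fosb (1.90, 1.27 to 2.73) was among the 5, so these pairs did not all involve Atf3. Depth limits Fosb, with 52 and 44 UMIs, and all values of Atf3 and Fos within DMSO clusters. No paired analysis was possible because each group has 1 library.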

Other observations

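A cluster of 75 DMSO cells and 1 dTAG13 cell, led by Chac1, Nupr1, Derl3 and Herpud1, genes of the unfolded protein and amino acid stress responses, had Atf3 at 25.6 CPM from 11 UMIs. With so few UMIs the Atf3 interval is wide, 12.8 to 45.8 CPM, and takes in the level of the whole dTAG13 library, 23.4 CPM. Jun was at 27.9 CPM from 12 UMIs in these cells, beside 74.9 CPM in the whole dTAG13 library, and Jund was at 231 CPM beside 386 CPM.

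Dusp1 and Ier2 were not highest in the cluster highest in Jun. Cell by cell, Jun and Dusp1 did go together, in 293 thinned dTAG13 cells (1.29 times the product of their shares, 1.15 to 1.45). In cluster 9, where Jun was at 141 CPM in dTAG13 cells, Dusp1 was at 22.6 CPM, beside 26.6 CPM over the whole dTAG13 library and 42.4 CPM in cluster 3.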
